A study of Mus musculus with 4 samples.

Results

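The cornified envelope genes of the mouse were followed across 4 microarrays made to study a gene called A in ligament. Members were the array genes whose name in the scanner files starts with Lce and a digit or with Sprr, together with Lor, Flg, Flg2, Ivl, Hrnr, Rptn, Tchh, Crnn, Tgm1, Tgm3, Casp14, Alox12b, Aloxe3, Cdsn, Dsg1a and Dsc1. They came to 48 genes of 30458, read by 56 of 39429 probes, and 40 of the 48 lie on chromosome 3. The rule uses gene names and no measured value, but it was drawn up with earlier results of these arrays known.

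The 4 samples each stand alone, with 1 array per group. Stem cells were mesenchymal cells derived from mouse embryos of the C3H background, supplied by the RIKEN cell bank. Transfected tissue was the ligament-like tissue grown from those cells after transfection with mouse A carried in the pCAGGS plasmid. Wild type ligament came from C57BL/6J mice. Transgenic ligament came from C57BL/6J mice carrying the A transgene, which were made by placing the same plasmid into fertilised eggs. The labels do not state which ligament was taken, the age of the mice, how many animals gave RNA or whether they were pooled. Cells and ligaments differ in strain as well as in source, and these cannot be told apart in any comparison between them. A single array per group allows no test of a difference, so none is given. In bulk RNA, fewer cells of a type and less RNA per cell cannot be told apart.

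The cornified envelope is the cross-linked protein shell that replaces the plasma membrane of a keratinocyte as it dies at the skin surface. Many of its building blocks are encoded side by side in the epidermal differentiation complex, a gene cluster switched on late in keratinocyte differentiation. Transglutaminases join loricrin, involucrin, small proline-rich and late cornified envelope proteins, filaggrin-type proteins bundle the keratin inside, lipoxygenases help to attach the outer lipid layer, and corneodesmosomes hold the dead cells together. Ligament is connective tissue, made largely of collagen fibres laid down by fibroblast-like cells, and is not known as a site of cornification.

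Each value is the log2 spot signal minus the 75th percentile of the same array, called here the normalised signal, so 0 marks that percentile. A gene is called higher or lower where 2 arrays differ by at least 2-fold. Some folds are bounds, written as at least N-fold, because the scanner software did not mark the dimmer array's spot as well above background. The brighter value is then divided by the dimmer probe's signal or by the lowest marked signal of the dimmer array, whichever is greater. The 75th percentile stood at a signal of 1165 in stem cells, 2272 in transfected tissue, 285.5 in wild type and 302.7 in transgenic ligament. Of all genes, 49.7% to 55.7% were well above background on each array. Among probes printed at 10 spots and well above background, the pooled SD between spots of an array was 0.0657 to 0.185 on the log2 scale. Spot scatter is technical, and it says nothing of the spread between animals or cultures. Of 9 tendon and ligament markers, 8 were well above background in wild type ligament, 9 in the transgenic one and 8 on each of the cell arrays. Skeletal muscle markers were also bright in both ligaments.

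Promoter sequences are shown first, for loricrin, for 2 late cornified envelope genes that were higher in transgenic ligament, and for a small proline-rich gene that was not well above background on any array. Each is the 250 bases before the gene's start in RefSeq's GRCm38.p6 annotation, written 5′ to 3′ on the gene's own strand. Capitals mark TATAAA (the TATA box), TGANTCA (the AP-1 site) and ATGCAAAT (the octamer), each searched on both strands. The windows are chr3:92083143-92083392 for Lor, chr3:92648308-92648557 for Lce1a1, chr3:93019062-93019311 for Lce1m, all on the minus strand, and chr3:92338890-92339139 for Sprr2d on the plus strand.
Lor: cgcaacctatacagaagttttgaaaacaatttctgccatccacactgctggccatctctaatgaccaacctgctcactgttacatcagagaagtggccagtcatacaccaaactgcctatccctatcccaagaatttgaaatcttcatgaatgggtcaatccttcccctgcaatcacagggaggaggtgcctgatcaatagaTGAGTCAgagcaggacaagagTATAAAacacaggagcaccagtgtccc
Lce1a1: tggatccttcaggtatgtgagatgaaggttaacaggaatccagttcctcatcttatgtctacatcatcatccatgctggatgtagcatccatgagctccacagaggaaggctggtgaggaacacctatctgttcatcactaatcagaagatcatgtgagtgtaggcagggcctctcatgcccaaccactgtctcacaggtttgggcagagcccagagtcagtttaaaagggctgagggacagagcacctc
Lce1m: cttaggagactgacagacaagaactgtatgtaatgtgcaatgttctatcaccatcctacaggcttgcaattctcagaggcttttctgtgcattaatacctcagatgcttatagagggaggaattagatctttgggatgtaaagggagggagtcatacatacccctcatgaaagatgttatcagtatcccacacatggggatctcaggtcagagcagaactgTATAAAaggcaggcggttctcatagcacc
Sprr2d: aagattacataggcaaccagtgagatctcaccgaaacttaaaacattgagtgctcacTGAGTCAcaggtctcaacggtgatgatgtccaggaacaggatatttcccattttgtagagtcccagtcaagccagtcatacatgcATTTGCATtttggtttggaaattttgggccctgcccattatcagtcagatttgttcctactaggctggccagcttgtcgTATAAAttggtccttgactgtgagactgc

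Of the 48 members, 42 had a promoter window. TATAAA was found in 19 of the 42, against 13.0% of 27025 promoters of the same length. In 18 of them the whole motif lay within the stretch from 45 to 16 bases before the start on the gene's own strand, against 2.36% of all. TGANTCA was found in 15 of 42 members and in 6.87% of all promoters. ATGCAAAT was found in 7 of 42 members, each of them a Sprr2 gene, and in 1.61% of all. The Sprr2 genes and the Lce1 genes differed in these letters: 7 of 9 Sprr2 windows held all 3 motifs, whereas of 12 Lce1 windows 2 held TATAAA and 0 held TGANTCA or ATGCAAAT. Only exact letters were counted, so variants with a base changed were left out. Such variants lie near the start in other Lce1 windows, as tttaaa in Lce1a1 and aataaa in Lce1a2 and Lce1b. Whether they act as a TATA box was not tested. Copies within a family resemble each other, so their windows are not independent, and a match is a description of the letters and not a bound site.

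**Figure D1:**
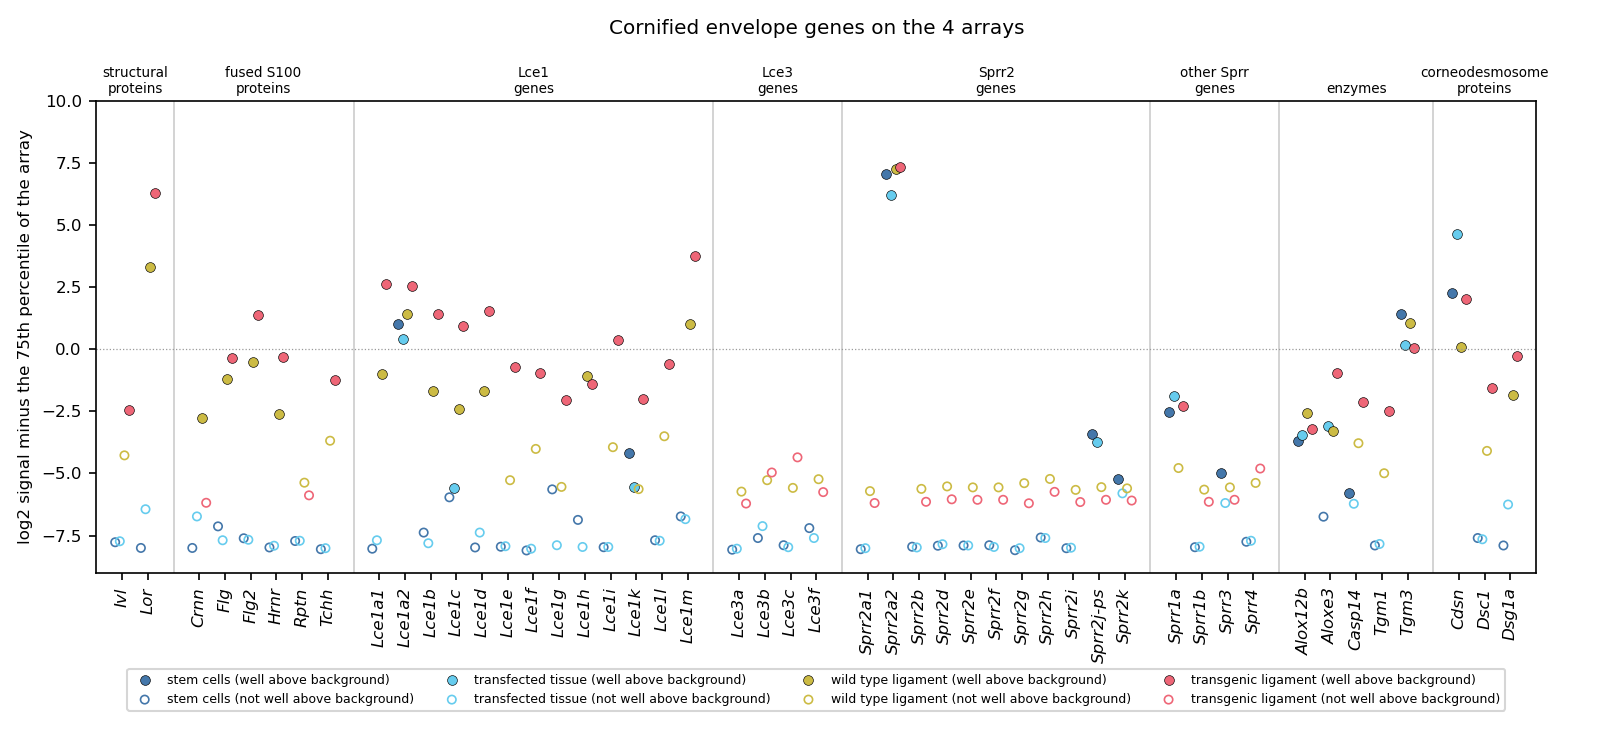
Normalised signal (log2 signal minus the array's 75th percentile) of the 48 cornified envelope genes on the 4 arrays, ordered by role, with 1 point per gene and array. Filled points are well above background and open points are not. The red points of transgenic ligament are filled for 29 genes and the yellow points of wild type ligament for 18, and most Sprr2 and all Lce3 points are open.

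Members were measurable more often in ligament than in the cells. Well above background were 29 of 48 in transgenic ligament, 18 in wild type ligament, 11 in stem cells and 10 in transfected tissue. As shares these are 60.4%, 37.5%, 22.9% and 20.8%, beside 53.9%, 49.7%, 55.7% and 55.1% of all genes. Only 5 members were well above background on all 4 arrays (Alox12b, Cdsn, Lce1a2, Sprr2a2 and Tgm3), and 15 were so on none. These counts judge each gene by its brightest probe over the arrays. The second probes of Alox12b and Tgm3 were not well above background in either cell sample, and the other Sprr2a2 probes were dim.

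Between the ligaments, 22 of the 30 members with a value were higher in transgenic ligament, where 6.29% of all 16454 genes compared were higher. Lower were 2, Crnn and Tgm3, where 7.04% of all genes were lower, and 6 lay within 2-fold. The median difference of the members was 1.86 on the log2 scale, beside -0.03 for all genes. The other 18 members were not well above background on either ligament array. A member visible on the transgenic array alone could take part only by being brighter there. That was the case for 12 members, of which 10 passed 2-fold as bounds. Among the 17 members well above background on both arrays, 12 were higher, 1 was lower and the median was 1.94. From the scatter between spots, the SD of a difference between these arrays is 0.193 for signals of 30 to 300 and 0.0978 above 300.

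Loricrin, the main protein of the epidermal envelope by mass, was well above background in both ligaments and higher in the transgenic one. The Lor probe, at chr3:91884206-91884265 in the mm9 build, gave a normalised signal of -8.00 in stem cells, -6.44 in transfected tissue, 3.33 in wild type and 6.31 in transgenic ligament. Neither cell value was well above background. Lor was thus 7.87-fold higher in transgenic than in wild type ligament, a log2 difference of 2.98. Against stem cells it was at least 556-fold higher in wild type and at least 4375-fold higher in transgenic ligament, or 9.12 and 12.1 on the log2 scale. These bounds hold for the scaling used here. Over the alternative settings the lowest log2 differences were 7.05 in wild type and 10.01 in transgenic ligament.

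Involucrin, an early scaffold protein of the envelope, was well above background in transgenic ligament alone. The Ivl probe with the higher signal read -7.77 in stem cells, -7.73 in transfected tissue, -4.27 in wild type and -2.44 in transgenic ligament. The bound of at least 1.96-fold falls just short of the 2-fold call. The second Ivl probe was not well above background on any array.

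The 13 Lce1 genes encode small proteins that are cross-linked into the envelope late. All 13 were well above background in transgenic ligament, 7 in wild type ligament, 3 in transfected tissue and 2 in stem cells. In transgenic against wild type ligament 12 of 13 were higher and 0 lower, with differences from -0.31 to 3.77 and a median of 2.73. Of all genes compared, 6.29% were higher and 7.04% lower. The Lce1 genes not well above background in wild type ligament could take part only by being brighter in the transgenic one.

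Lce1a1 read -8.03 in stem cells, -7.69 in transfected tissue, -0.98 in wild type and 2.62 in transgenic ligament, a 12.1-fold difference between the ligaments. Lce1m read -6.73, -6.84, 1.03 and 3.75 on the same arrays in that order, and was 6.62-fold higher in transgenic ligament. Both genes were well above background in each ligament and in neither cell sample.

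Lce1b was printed at 10 spots, which gives its technical error. In wild type ligament the spots ran upward from a signal of 82.2 with an SD of 0.0900 (log2, n = 10 spots), and in transgenic ligament from 758 to 903 with an SD of 0.0809. The spots of the arrays do not overlap, and the log2 difference was 3.12, or 8.70-fold. These are spots of 1 RNA sample each.

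Lce1d changed from -1.68 in wild type to 1.55 in transgenic ligament (9.37-fold), and Lce1c from -2.41 to 0.95 (10.3-fold). The other Lce1 genes named next were well above background in transgenic but not in wild type ligament, so their folds are bounds. The highest bound was that of Lce1i, at least 13.7-fold by its brighter probe, followed by Lce1l at 7.11, Lce1e at 6.47, Lce1f at 5.44, Lce1k at 2.70 and Lce1g at 2.60. The rank of Lce1i rests on that probe, as its second probe was dimmer in transgenic ligament, at -1.31 against 0.37.

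Lce1h was the family member not called higher. It read -6.87 in stem cells, -7.96 in transfected tissue, -1.08 in wild type and -1.38 in transgenic ligament, a difference of -0.31 between the ligaments. Its probe nearly matches the second probe of Lce1i, which went from a signal of 11.1 in wild type to 122 in transgenic ligament and was well above background only there. The mm9 positions are chr3:92567272-92567331 for the Lce1h probe and chr3:92581269-92581328 for that Lce1i probe, both on the minus strand. The pair is shown because near-copies gave different readings. Capitals mark their longest shared run, 29 bases, and 56 of 60 bases match.
Lce1h: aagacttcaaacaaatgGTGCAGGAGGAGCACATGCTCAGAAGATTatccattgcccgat
Lce1i: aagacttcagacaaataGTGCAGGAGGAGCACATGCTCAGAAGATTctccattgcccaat

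Some other Lce1 probes also resemble each other. Of 120 pairs among 16 Lce1 probes, 1 shared a run of at least 18 bases, which is the pair shown, and the longest run in any other pair was 17. Laid over each other without gaps over at least 40 bases, 6 pairs matched at 70% of bases or more, a level chosen after the values were seen. Besides the pair shown these were Lce1d with Lce1i (46 of 60 bases), Lce1d with Lce1f (35 of 45), Lce1f with Lce1g (33 of 43), Lce1e with Lce1i (33 of 43) and Lce1f with Lce1i (33 of 45). Of the 12 Lce1 genes called higher, 5 were thus read by probes that resemble one another and 7 were in no such pair. How far transcripts of one copy bind the probe of another was not tested. A probe described as Lce1j, which the files name by a transcript number and which is no member, read -0.56 in wild type and 0.12 in transgenic ligament, a difference of 0.68.

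The 4 Lce3 genes, the branch of the family known from injured and psoriatic skin, were not well above background on any array. Their normalised signals ran from -8.07 to -4.35. No fold is given for them, and at this signal a low level would not be detectable.

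**Figure D2:**
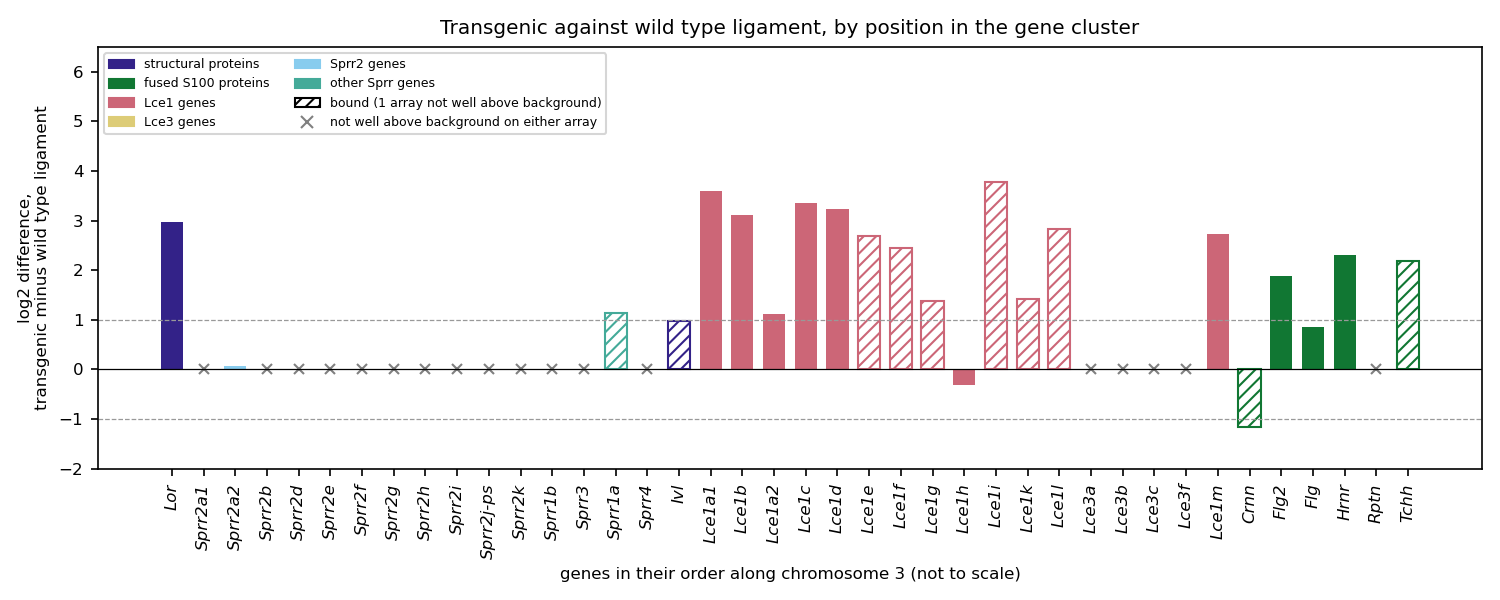
Log2 difference of transgenic minus wild type ligament (vertical axis) for members in the order of their probes along the chromosome 3 cluster, coloured by role. Solid bars are measured on both arrays, hatched bars are bounds with 1 array not well above background, crosses have no value, and dashed lines mark 2-fold. Lor, the Lce1 genes other than Lce1h, and 3 of the 6 fused S100 genes stand above the upper line, while the Sprr2 and Lce3 genes are crosses apart from Sprr2a2 near 0.

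Small proline-rich proteins act as flexible cross-bridges between envelope proteins, and the Sprr2 group is known for induction in stressed epithelia. Of 11 Sprr2 genes, 10 were not well above background in either ligament, and the exception was Sprr2a2. In the cells 3 of 11 were well above background in stem cells and 2 in transfected tissue, Sprr2a2 again among them. Sprr2j-ps, whose symbol marks a pseudogene, read -3.40 in stem cells and -3.75 in transfected tissue, and Sprr2k was well above background in stem cells alone, at -5.24. Sprr2d read -7.91 in stem cells, -7.85 in transfected tissue, -5.52 in wild type and -6.04 in transgenic ligament, with none of these well above background.

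The Sprr2a2 value came from a probe that also resembles another transcript. It read 7.08 in stem cells, 6.22 in transfected tissue, 7.27 in wild type and 7.34 in transgenic ligament, well above background throughout. Its sequence shares runs of 19 to 31 bases with 7 other array probes, one of them described as a 60S ribosomal protein L21-like transcript. Those 7 probes differed by 0.06 to 0.17 between the ligaments, and the Sprr2a2 probe by 0.07. In wild type ligament minus stem cells they differed by -1.92 to 0.03, and the Sprr2a2 probe, at 0.19, lay outside that range. Capitals mark the run of 21 bases it shares with the L21-like probe. The Sprr2a2 probe is placed by the files at chr3:92060587-92060646 (mm9, plus strand).
Sprr2a2: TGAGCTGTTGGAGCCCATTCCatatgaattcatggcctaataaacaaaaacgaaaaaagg
L21-like: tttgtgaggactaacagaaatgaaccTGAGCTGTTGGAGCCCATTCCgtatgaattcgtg

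The other Sprr2a2 probes were dim. One read -5.56 in wild type and -3.57 in transgenic ligament and was well above background only in the latter, and the other was not well above background on any array. Which transcript gives the bright signal was not tested, and it is not read here as a level of Sprr2a2. Without that probe the counts of members higher and lower stayed at 22 and 2, in a setting added after the values were seen. As the probe lay within 2-fold, leaving it out could not lower either count, so this is no check of them.

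Among the other Sprr genes, Sprr1a, a substrate of transglutaminases that is also induced in injured non-epithelial tissue, read -2.53 in stem cells, -1.88 in transfected tissue, -4.78 in wild type and -2.27 in transgenic ligament. It was well above background everywhere except in wild type ligament, and at least 2.20-fold higher in transgenic than in wild type. Sprr3 was well above background in stem cells alone, at -5.00. Sprr1b and Sprr4 were not well above background on any array.

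Fused S100 proteins are large repeat proteins that bind keratin filaments or reinforce the envelope. Of the 6, 4 were well above background on each ligament array and 0 on either cell array. In transgenic ligament 3 were higher and 1 lower, beside 6.29% higher and 7.04% lower of all genes. Flg2 (filaggrin 2) read -0.49 in wild type and 1.40 in transgenic ligament (3.71-fold), and Hrnr (hornerin) -2.62 and -0.32 (4.95-fold). Tchh, trichohyalin of hair follicle inner root sheath and tongue, was at least 4.56-fold higher in transgenic ligament, at -1.22 against a wild type value of -3.68 that was not well above background.

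Filaggrin itself, which aggregates keratin and is later broken down into water-binding amino acids, lay within 2-fold, at -1.18 in wild type and -0.33 in transgenic ligament, a difference of 0.85. A second probe described as filaggrin, which the files name by a transcript number and which is outside the member rule, gave a difference of 1.92, and one more gave a bound of 0.32. Probes for this long repeat gene thus differ on which side of 2-fold it falls.

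Crnn (cornulin), known from oral and oesophageal epithelium, was the reverse. It read -8.00 in stem cells, -6.73 in transfected tissue, -2.75 in wild type and -6.18 in transgenic ligament, and only wild type was well above background. It was at least 2.22-fold lower in transgenic ligament. Rptn (repetin) was not well above background on any array.

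The envelope enzymes did not move as one group. Of 5, 2 were higher, 1 was lower and 2 lay within 2-fold, with a median difference of 0.92. The shares over all genes were 6.29% higher and 7.04% lower. Aloxe3, which acts after Alox12b in making the lipids bound to the envelope, read -3.29 in wild type and -0.95 in transgenic ligament, a 5.09-fold difference. Casp14, the protease that helps to process filaggrin, was at least 2.47-fold higher in transgenic ligament, and Tgm1, the membrane-bound transglutaminase of keratinocytes, was at least 1.89-fold higher, short of the call.

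Tgm3, a transglutaminase of epidermis and hair, read 1.44 in stem cells, 0.18 in transfected tissue, 1.05 in wild type and 0.04 in transgenic ligament. Its difference of -1.01 between the ligaments only just reaches 2-fold, and it kept that call in 4 of 8 alternative settings, with differences of -1.01 to -0.70. Those 4 include the setting without the Sprr2a2 probe, which could not change Tgm3. The second Tgm3 probe was not well above background in the cells, and read -3.13 in wild type and -3.51 in transgenic ligament.

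Alox12b was read in opposite directions by its probes. The brighter one over the arrays went from -2.58 in wild type to -3.20 in transgenic ligament, a difference of -0.61, and the other from -2.73 to -1.01, a difference of 1.73. Both were well above background in each ligament, so the direction of Alox12b is unsettled here.

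**Figure D3:**
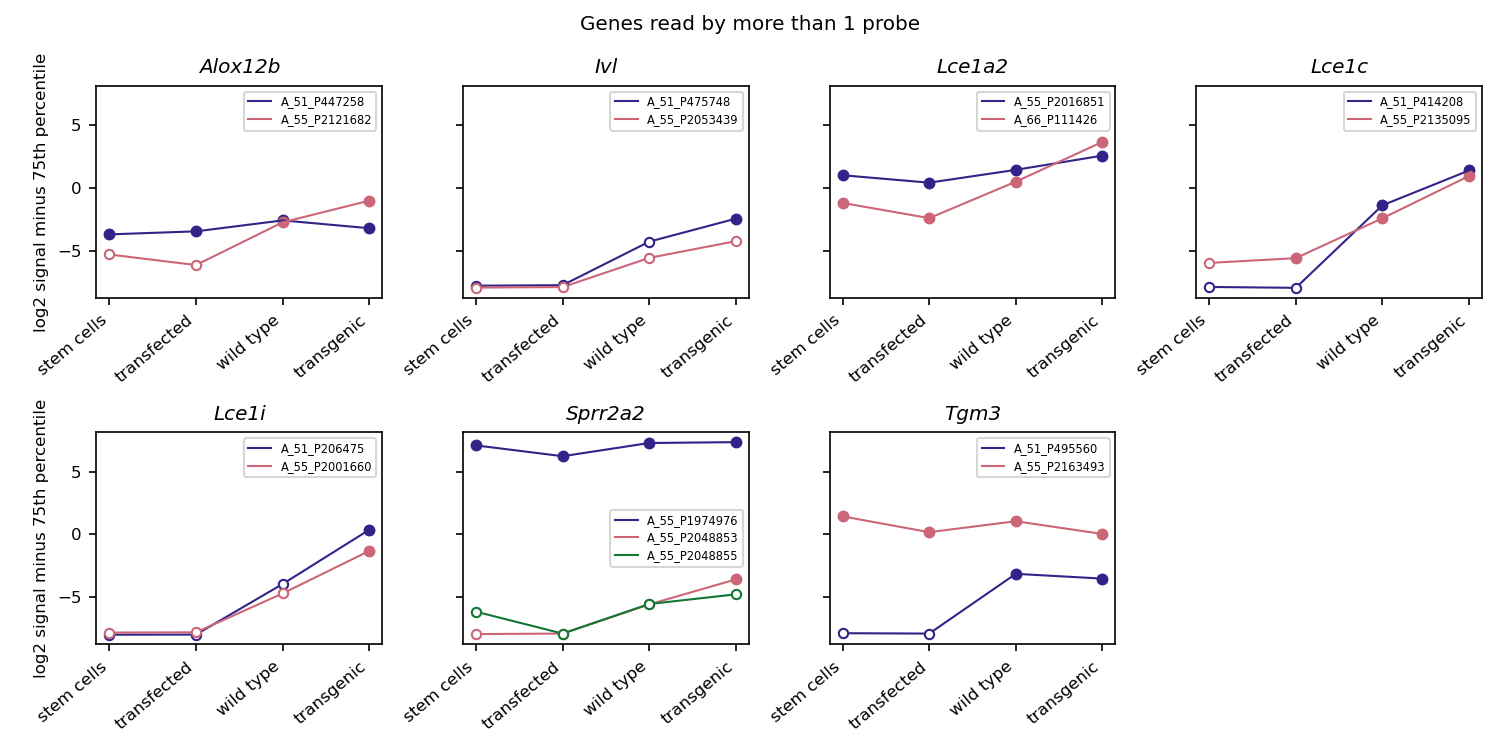
Normalised signal (log2 signal minus the array's 75th percentile) on the 4 arrays for the 7 members read by more than 1 probe, with 1 line per probe. Filled points are well above background and open points are not. Both Lce1c and both Lce1i probes are higher in transgenic than in wild type ligament, the Alox12b probes part, and the Sprr2a2 probes lie far apart.

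Lce1a2 also differed between its probes in size, though not in direction. The probe standing for the gene read 1.01 in stem cells, 0.42 in transfected tissue, 1.44 in wild type and 2.57 in transgenic ligament, a 2.18-fold difference between the ligaments. The other probe read -1.19, -2.40, 0.50 and 3.66 in the same order, a log2 difference of 3.16. Both probes were well above background on every array, which sets Lce1a2 apart in detection from the other Lce1 genes.

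Corneodesmosome genes, whose products rivet cornified cells together until shedding, were all higher in transgenic ligament, where 6.29% of all genes were higher. Cdsn (corneodesmosin) was 3.83-fold higher, at 2.03 against 0.09. Dsg1a (desmoglein 1 alpha) was 2.97-fold higher, at -0.25 against -1.82. Dsc1 (desmocollin 1) was at least 3.57-fold higher, at -1.57 against a wild type value of -4.09 that was not well above background.

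Against the stem cells both ligaments carried more of the envelope genes, but mainly as bounds. In wild type ligament 14 of 20 members with a value were higher (37.7% of all 16628 genes) and 1 was lower (24.5% of all). In transgenic ligament 24 of 30 were higher (37.9% of all 17694) and 1 was lower (23.4% of all). The median differences were 3.27 and 4.69, beside 0.30 and 0.32 for all genes. These comparisons share the stem cell array, and each shares a ligament array with the comparison between ligaments. Bounds made up 13 of the 14 and 21 of the 24. Among members well above background on both arrays, 1 of 5 was higher in wild type and 3 of 8 in transgenic ligament. Of all genes measured that way, 34.1% and 32.5% were higher. The medians of these members were 0.19 and 0.38, beside 0.27 and 0.21 for all genes.

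Cdsn was the member called lower in wild type ligament than in stem cells, with a difference of -2.20 (0.09 against 2.29). Lce1m was at least 113-fold higher in wild type and at least 745-fold higher in transgenic ligament than in stem cells, and Flg2 at least 39.3-fold and at least 146-fold higher. These bounds, 6.81 and 9.54 on the log2 scale for Lce1m and 5.30 and 7.19 for Flg2, hold for the scaling used here. Over the alternative settings the lowest log2 differences were 4.60 and 7.19 for Lce1m and 3.27 and 4.83 for Flg2.

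Between transfected tissue and its parent cells, 8 of the 12 members with a value lay within 2-fold. Of the 12 members with a value, 2 were higher (11.0% of all 17890 genes) and 2 were lower (13.3% of all), with a median of -0.42 beside -0.08 for all genes. Cdsn rose from 2.29 to 4.63, a 5.04-fold difference that was measured on both arrays by a single probe. Aloxe3 read -3.10 in transfected tissue and was not well above background in stem cells at -6.74, so it was at least 6.43-fold higher.

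The members lower in transfected tissue were Lce1k, at -5.53 against -4.18 in stem cells (2.55-fold), and Tgm3 (2.39-fold). The Tgm3 call rests on its brighter probe, as the second was not well above background in either cell sample. Neither the Lor nor the Ivl probes were well above background in either cell sample, and nor were the member probes of the 6 fused S100 genes. Outside the member rule, the filaggrin probe with the bound of 0.32 was well above background in stem cells, at -5.53, but not in transfected tissue. Of 9 suprabasal epidermis markers, 3 were well above background in each cell sample, with a summed signal of 1.28 times the array's 75th percentile in stem cells and 1.20 times in transfected tissue.

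Other genes of keratinocytes were higher in transgenic ligament as well. These lists were drawn up from known biology, with earlier results of these arrays in view. For each list below, the share over all genes compared between the ligaments was 6.29% higher and 7.04% lower. As with the members, a gene visible on 1 array alone could enter a count only by being brighter there. Of 13 epidermal keratins with a value, 10 were higher and 0 lower (median 2.08). Krt1 and Krt10, the keratin pair of the suprabasal layers, were 5.20-fold and 4.26-fold higher, and Krt5 and Krt14, the pair of the basal layer, 4.25-fold and 4.86-fold higher. Of 10 desmosome and junction genes with a value, 6 were higher and 0 lower (median 1.46). Dsp (desmoplakin) was 4.75-fold and Evpl (envoplakin, an early envelope scaffold) 3.52-fold higher.

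Among genes for barrier lipids, 5 of 10 with a value were higher and 0 lower (median 1.05). Acer1, a ceramidase of the epidermis, was 5.66-fold higher, and Elovl4, which makes very long fatty acids, 3.86-fold higher. Among epidermal proteases and their inhibitors, 6 of 12 were higher and 0 lower (median 1.22). Asprv1, a protease that cleaves profilaggrin, was 4.58-fold higher, and Klk5, a protease of shedding, 4.47-fold higher.

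Of 22 other cornified cell genes with a value, 16 were higher and 1 lower (median 1.50). Krtdap, a secreted protein of differentiating keratinocytes, was 4.27-fold higher and Crct1, a neighbour in the chromosome 3 cluster, 4.71-fold higher. The one lower was Padi4, a peptidylarginine deiminase best known from neutrophils, by 2.58 on the log2 scale. Of 16 epidermal transcription factors with a value, 7 were higher and 0 lower (median 0.94). All 16 were well above background in transgenic ligament, but only 11 in wild type ligament. The 7 include the bounds of Grhl3, Zfp750, Tfap2c and Tfap2a. Grhl3 was at least 3.30-fold higher, whereas Trp63, the factor that marks basal keratinocytes, read 2.94 in wild type and 2.77 in transgenic ligament, a difference of -0.18.

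Within the chromosome 3 stretch that holds the members (mm9, 91884206 to 93252912), 25 other gene names were on the array. Of the 19 with a value between the ligaments, 7 were higher and 2 lower, beside 6.29% higher and 7.04% lower of all genes. These names are not all separate from the genes above. They include the Lce1j probe and the filaggrin probes outside the member rule, and the filaggrin probe with a difference of 1.92 is among the 7. So are Crct1 and Kprp, which also stand in the list of other cornified cell genes. Kprp, a proline-rich keratinocyte protein, went from -1.25 to 1.01, and Prr9, a proline-rich neighbour, from -1.81 to 0.08. The stretch also held probes that barely differed, such as Lelp1, with a difference of 0.07.

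**Figure D4:**
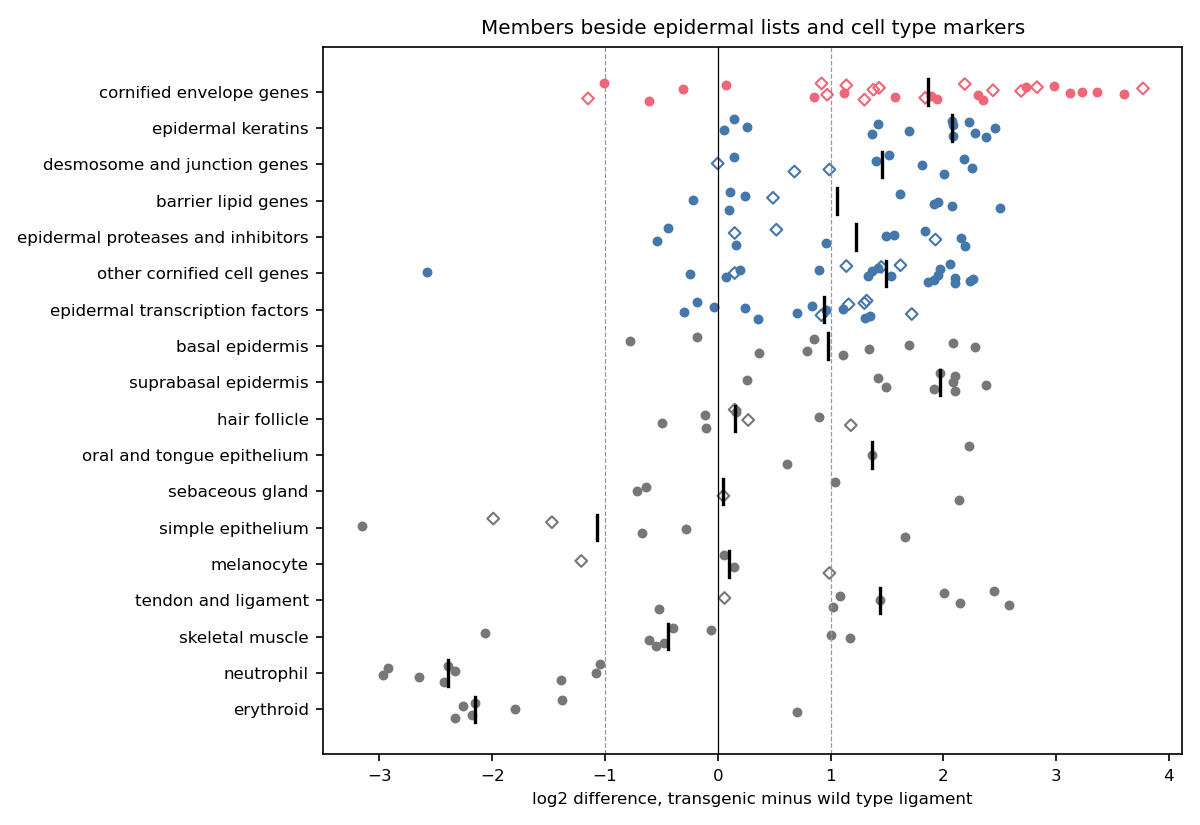
Log2 difference of transgenic minus wild type ligament (horizontal axis) for each gene with a value, by list, with the cornified envelope genes in red, pathway lists in blue and cell type markers in grey. Circles are measured on both arrays, diamonds are bounds, black bars are medians and dashed lines mark 2-fold. The envelope genes have a median of 1.86 and the suprabasal epidermis markers 1.97, while all neutrophil markers lie on the lower side.

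Markers of several cell types moved along with the envelope genes between the ligaments, where 6.29% of all genes were higher and 7.04% lower. All 9 suprabasal epidermis markers were well above background in both, 8 were higher and 0 lower (median 1.97), and their summed signal went from 35.2 to 142 times the 75th percentile. All 10 basal epidermis markers were well above background in both, 5 were higher and 0 lower (median 0.98), with a summed signal of 28.3 in wild type and 70.7 in transgenic ligament. Detection of the basal markers was not particular to ligament, as 10 were well above background in stem cells and 8 in transfected tissue. Their summed signal in the cells was 8.36 and 6.73. Several keratins stand both in these marker lists and in the keratin list. The part of epidermal cells in the result was not tested.

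Other epithelia gave a mixed picture, set beside 6.29% of all genes higher and 7.04% lower. Of 17 hair follicle markers, 5 were well above background in wild type and 8 in transgenic ligament, with 1 higher and 0 lower of 8 with a value. Of 8 oral and tongue markers, 3 were well above background in both ligaments and 2 were higher, Krt78 (4.68-fold) and Krt13 (2.58-fold), the partner keratin of Krt4. Krt4, Krt76 and Krt36 were not well above background in either ligament. Simple epithelium markers went the other way, with 1 higher and 3 lower of 6 with a value (median -1.07), and Krt18 was 8.89-fold lower in transgenic ligament. Of 5 sebaceous gland markers with a value, 2 were higher and 0 lower, and of 4 melanocyte markers 0 were higher and 1 lower.

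Blood cell markers were lower in transgenic ligament, where 7.04% of all genes were lower and 6.29% higher. All 9 neutrophil markers were lower (median -2.39), with a summed signal of 1215 in wild type and 430 in transgenic ligament, and 6 of 7 erythroid markers were lower (median -2.15), with a summed signal of 560 and 121. Tendon and ligament markers were higher for 7 and lower for 0 of 9 (median 1.44), with a summed signal of 258 and 344. Of 8 skeletal muscle markers with a value, 2 were higher and 1 lower (median -0.44). The part of these differences in cell makeup in the envelope result was not tested.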

How the data were processed

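Total RNA of 4 samples was labelled with Cy3 and hybridised by the authors to 1 Agilent array each, all on 1 slide with the same scan time. The deposited scanner files hold spot intensity as background-subtracted processed signal on a linear scale, made with Feature Extraction 10.7.1.1 per the file headers, whereas the submitters' processing notes name 9.5.1.1. The deposited value table holds linear intensity (median 49.7 in each column), with its scaling method not stated. Probe positions are in mm9 per the file headers, and the other deposited columns used are flags, names and positions.

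Control and outlier spots were left out (1 member spot among the latter), spots of a probe were averaged, and the log2 75th percentile of the array was subtracted. Where a gene had several probes, the one with the highest 4-array mean stood for it. Names came from the supplied RefSeq accession table (26761 of 39429 probes) and otherwise from the files, and 45 of 48 members matched a RefSeq symbol. Alternatives used limma 3.58.1 in R 4.3.3, and other steps Python 3.11.15 and pandas 2.3.3. The comparison step was tested on simulated data. There, changes were planted only in genes well above background, with less scatter than dim spots have. A gene called higher by a bound could not arise in it, so such calls were not tried. Precision is limited by having 1 array per group.

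The members, lists, comparisons and alternatives were chosen with earlier results of these data known. All members could be named, with up to 6 genes of each pathway list by size of difference between the ligaments, Krt1, Krt10, Krt5, Krt14, Trp63 and Krtdap, and up to 4 of each marker list. Neighbouring genes and the Lce1j and filaggrin probes outside the member rule were singled out after their values were seen.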

Additional observations from a re-analysis of the deposited data

Results flagged for a closer look

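Lce1k was higher in transgenic than in wild type ligament (a bound of 1.43 on the log2 scale) and lower in transfected tissue than in stem cells (-1.35). It stands here because the samples carrying A moved opposite ways from their controls. The difference between these effects was not tested, each arm has 1 array, and the signals were low, at 64.4 in stem cells and 49.2 in transfected tissue.

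A probe described as filaggrin, which the files name by a transcript number and the member rule leaves out, was 1.92 higher (log2) in transgenic than in wild type ligament, with -0.51 against -2.43. It stands here as a signal outside the members, beside the 0.85 of the Flg probe.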

How the results depend on the processing

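No paired analysis was possible because each group holds 1 array. For transgenic against wild type ligament the 22 members higher became 12 when both arrays had to be well above background and 13 at a 4-fold threshold, where 4.68% and 1.13% of all genes were higher. The 2 lower became 0 with normexp background correction and at 4-fold, and 1 with the percentile over probes well above background on all arrays, with the mean of all probes, with the deposited value table and when both arrays had to be well above background. The median of 1.86 became 1.06 with normexp and 2.48 with no bound for dim probes. Of its 24 calls, 12 held in each of the 8 settings that keep the 2-fold threshold, and 16 in each such setting that gave a value. The setting without the Sprr2a2 probe is among the 8, and it could change none of these calls.

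For wild type ligament against stem cells the 14 higher became 1 with both arrays well above background. That was 1 of 5 members with a value, beside 34.1% of all genes. The 1 lower became 2 with quantile normalization and with the deposited table, and 4 with no bound. The median of 3.27 became 2.36 with normexp, 2.09 with quantile normalization, 2.29 with the deposited table, 0.19 with both arrays well above background, 3.50 with no bound and 3.53 with the mean of all probes. For transgenic ligament against stem cells the 24 higher became 3 with both arrays well above background. That was 3 of 8 members with a value, beside 32.5% of all genes. The 1 lower became 2 with quantile normalization and the deposited table, 3 with no bound, and 0 with the mean of all probes and at 4-fold. The median of 4.69 became 3.24 with normexp, 3.58 with quantile normalization, 4.00 with the deposited table, 0.38 with both arrays well above background and 5.91 with no bound. For transfected tissue against stem cells the 2 higher became 1 with both arrays well above background. That was 1 of 8 members with a value, beside 9.39% of all genes. The 2 lower became 1 with the mean of all probes and 0 at 4-fold.

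Fewer members enter when both arrays must be well above background. A 4-fold threshold can only lower a count or leave it as it was. With no bound for dim probes, each bound gives way to a difference at least as large in size. What caused the other shifts was not tested. Quantile normalization moved the median of all genes from 0.30 to -0.13 in wild type and from 0.32 to -0.12 in transgenic ligament against stem cells. For wild type, 5362 genes were then higher and 5238 lower, and for transgenic ligament 28.5% and 29.7% of all. With the deposited table the shares higher and lower were 30.4% and 30.8%, and 28.7% and 30.2%. For transfected tissue they became 6.18% and 12.5% with normexp and 13.7% and 10.9% with the percentile over detected probes. The remaining 64 values, none with another direction, stayed within 1.5 times the count or within spot scatter. Signals under 30 had a spot SD of 0.277 to 0.381 (log2), which limits the dim members.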
